A study of Mus musculus with 6 samples.

Results

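The 10 genes described here are the PGC-1 coactivators (Ppargc1a, Ppargc1b and Pprc1), the DNA-binding factors Nrf1 and Gabpa, and 5 proteins that act on the mitochondrial genome (Tfam, Tfb1m, Tfb2m, Polrmt and Polg). They were chosen by symbol from a table of 24421 genes, and all 10 were found in it. The libraries came from primary mouse kidney cells cultured as proximal tubular epithelial cells, the cells that reabsorb most of what the glomerulus filters. Of 6 libraries, 3 were labelled Atg5KO and 3 Atg5F/F, where F/F stands for a floxed Atg5 gene, whose product is needed to form autophagosomes. All 6 cultures had received 20 µM erastin2 for 24 h, a compound that blocks cystine uptake and triggers ferroptosis, so no library shows these genes without the drug. The labels give the same batch for all 6 and do not give the Cre line, the animals or their age, and nothing says that replicates came from separate mice, so p-values measure the spread between these libraries, which may be technical.

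PGC-1 coactivators do not bind DNA themselves. They dock on transcription factors, among them nuclear respiratory factor 1 (Nrf1, a different gene from the antioxidant factors Nfe2l1 and Nfe2l2), the GABP complex, oestrogen-related receptors and PPARs, and raise nuclear genes for respiration and for copying and reading mitochondrial DNA. Inside the organelle POLRMT, with TFAM and TFB2M, starts transcription, and POLG copies the genome. The proximal tubule is rich in mitochondria, and PGC-1alpha (Ppargc1a) has been linked in mouse kidney to resistance to acute injury and to NAD synthesis.

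The starts of 5 of the genes are shown because 3 of them (Ppargc1a, Nrf1, Polrmt) differed between the genotypes and the others (Tfam, Tfb2m) did not pass the test, while the factors above are known to act through such promoters. The sequences are RefSeq's for GRCm38.p6, 5′ to 3′ on the strand of the gene, from 250 bases before to 50 after the start site. Capitals mark matches to 4 motifs searched on both strands: GCGCANGC for NRF1, CCGGAA for ETS factors such as GABP, TGACGT for the cAMP response element, and AAGGTCA for oestrogen-related receptors. RefSeq lists 2 starts for Nrf1, and the one nearest the start of the annotated gene is printed.
Ppargc1a, chr5:51567676-51567975, minus strand: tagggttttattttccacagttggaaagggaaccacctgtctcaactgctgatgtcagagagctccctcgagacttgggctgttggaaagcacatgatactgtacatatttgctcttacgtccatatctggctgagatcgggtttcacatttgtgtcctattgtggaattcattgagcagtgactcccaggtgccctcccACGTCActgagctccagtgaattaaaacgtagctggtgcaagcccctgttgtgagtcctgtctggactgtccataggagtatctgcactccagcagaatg
Nrf1, chr6:30047738-30048037, plus strand: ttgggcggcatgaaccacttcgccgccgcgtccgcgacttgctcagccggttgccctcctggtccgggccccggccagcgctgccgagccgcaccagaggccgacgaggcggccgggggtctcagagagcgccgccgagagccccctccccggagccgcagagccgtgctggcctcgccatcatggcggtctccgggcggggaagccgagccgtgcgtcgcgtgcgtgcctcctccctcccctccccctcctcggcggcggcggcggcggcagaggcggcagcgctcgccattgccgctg
Polrmt, chr10:79746532-79746831, minus strand: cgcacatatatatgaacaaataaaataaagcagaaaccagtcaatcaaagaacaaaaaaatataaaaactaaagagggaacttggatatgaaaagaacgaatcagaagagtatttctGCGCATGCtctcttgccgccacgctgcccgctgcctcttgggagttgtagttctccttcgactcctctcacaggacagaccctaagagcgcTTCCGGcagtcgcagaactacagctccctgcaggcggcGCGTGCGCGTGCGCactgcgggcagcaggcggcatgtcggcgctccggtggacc
Tfam, chr10:71237995-71238294, minus strand: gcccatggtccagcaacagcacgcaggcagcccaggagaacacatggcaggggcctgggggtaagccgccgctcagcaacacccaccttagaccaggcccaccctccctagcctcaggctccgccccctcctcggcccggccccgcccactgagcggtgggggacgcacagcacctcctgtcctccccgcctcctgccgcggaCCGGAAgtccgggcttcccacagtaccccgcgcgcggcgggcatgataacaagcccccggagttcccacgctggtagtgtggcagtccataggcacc
Tfb2m, chr1:179546227-179546526, minus strand: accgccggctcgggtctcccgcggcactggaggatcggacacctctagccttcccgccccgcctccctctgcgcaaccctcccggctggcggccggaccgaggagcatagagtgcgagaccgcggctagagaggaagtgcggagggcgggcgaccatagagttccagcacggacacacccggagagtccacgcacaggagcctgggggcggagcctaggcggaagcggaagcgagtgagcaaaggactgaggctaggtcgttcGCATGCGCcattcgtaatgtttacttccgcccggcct

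The Ppargc1a window held a single match, to the cAMP response element, whose first base lay at -50 from the start site. The Polrmt window held 3 matches to the NRF1 motif, beginning at -133, -4 and 3, of which the last 2 overlap, and an ETS match at -42. An ETS match lay at -47 in Tfam, and an NRF1 match at 14 in Tfb2m. No motif searched was found in the Nrf1 window, which had 77.0% G and C. Promoters were read for 9 of these genes, all but Ppargc1b. Among them the NRF1 motif was found in 2 and the ETS motif in 5 (Gabpa, Tfam, Tfb1m, Polrmt and Polg). The cAMP response element was found in 1 and the oestrogen-related receptor motif in 0. The Pprc1 window (chr19:46056289-46056588) lies inside the annotated gene, past its start at 46044886. Among 27025 mouse promoters of the same length, 10.1% held the NRF1 motif, 15.2% the ETS motif, 7.64% the cAMP response element and 4.66% the receptor motif. The 5 promoters with an ETS match had 52.0% to 70.3% G and C, against a median of 52.7% over all promoters. The part of this content in the matches was not tested. These are matches of letters only and no binding was measured.

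Before the results, the libraries were set against their labels. Atg5 (chr10:44268358-44364291, GRCm38), the targeted gene, had 13.3, 11.5 and 12.7 FPKM (fragments divided by gene length in kilobases and by library size) in the Atg5KO-labelled libraries, against 8.76, 8.95 and 7.94 FPKM in the Atg5F/F-labelled libraries. Atg5 was thus higher, not lower, in the libraries labelled as its knockout: limma put the difference at 0.50 ± 0.066 on the log2 scale (SE, adjusted p = 5.5e-04). A value over a whole gene cannot show the loss of 1 exon, and every direction below rests on the labels. Libraries held 15528454 to 30004933 reads in genes. Correlations of log2 values were 0.994 to 0.997 within groups and 0.978 to 0.984 between them. Levels also ran with gene length differently in the groups: Spearman's rho of a library's deviation on length was 0.04 to 0.34 in the 3 Atg5KO-labelled libraries, against -0.23 to -0.16 in the 3 Atg5F/F-labelled libraries.

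Of the 10 genes, 9 passed the filter on low values and were tested, and 3 of these 9 (33.3%) differed between genotypes at an adjusted p under 0.05. Ppargc1a was higher and Nrf1 and Polrmt were lower in the Atg5KO-labelled libraries. Among all 11559 genes tested, 39.2% passed, 21.3% as higher and 17.9% as lower, so the share among these genes was near that of the table. The groups did not overlap for 5 of the 9 (55.6%), against 51.9% of all genes tested. The median log2 fold change was 0.02 both over the 9 and over all genes tested. In bulk RNA, fewer cells of a type and less RNA per cell cannot be told apart.

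**Figure D1:**
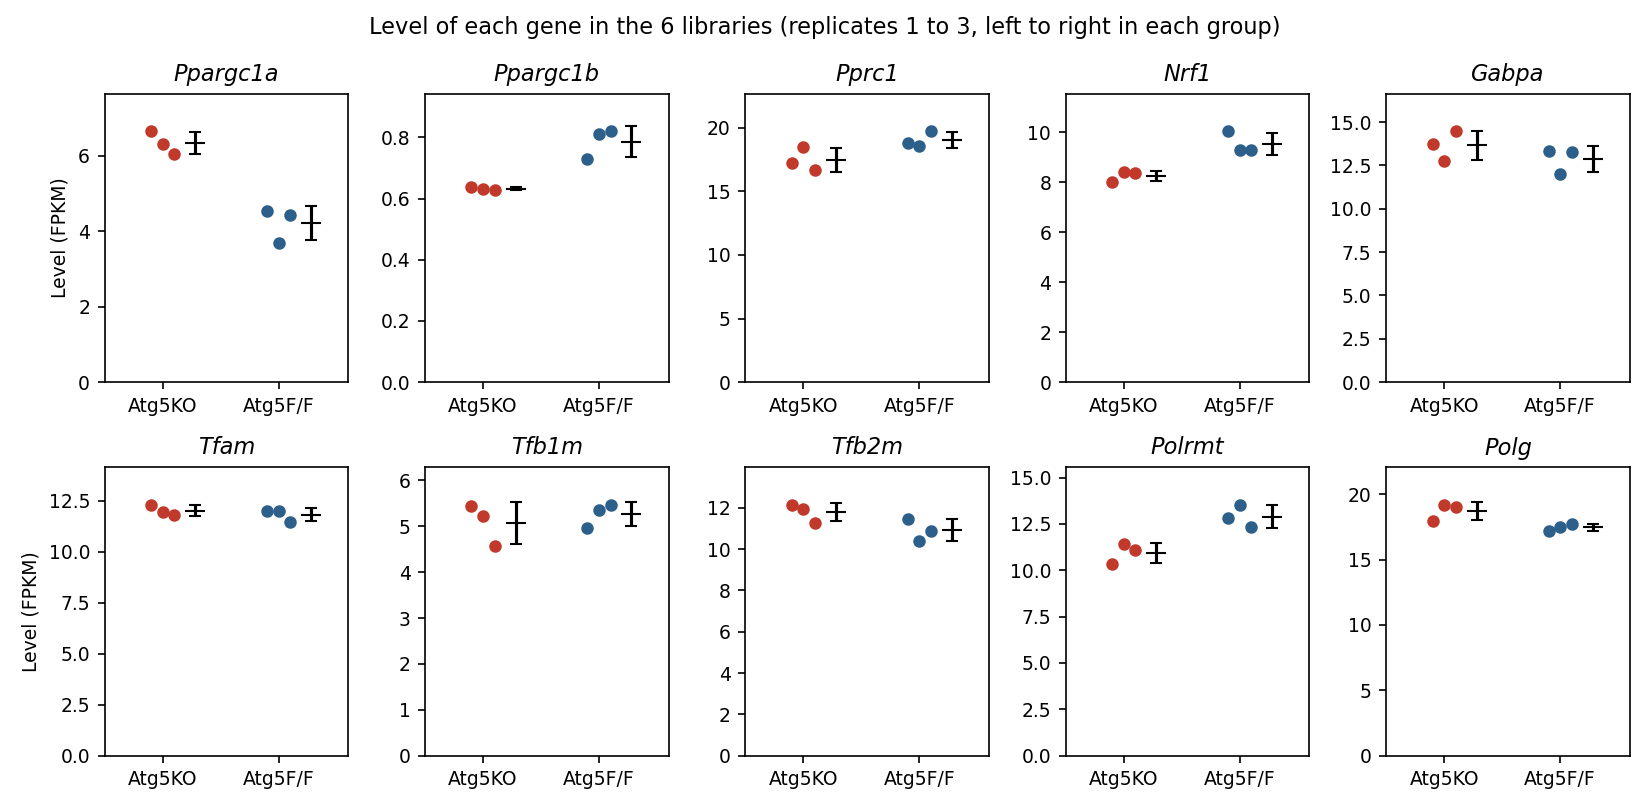
FPKM of each of the 10 genes in each library (vertical axis, from 0), with Atg5KO-labelled libraries on the left and Atg5F/F-labelled libraries on the right of each panel, points for libraries, and lines and bars for means and SD. Ppargc1a stands higher in every Atg5KO-labelled library (6.06 to 6.66) than in any Atg5F/F-labelled one (3.70 to 4.53), while the points of Gabpa, Tfam, Tfb1m and Tfb2m overlap between the groups.

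Among the coactivators, Ppargc1a (chr5:51454250-51567726) was the gene of the 10 that differed most. PGC-1alpha is the inducible member of its family and responds to cold, fasting, exercise and cAMP. It had 6.66, 6.31 and 6.06 FPKM in the Atg5KO-labelled libraries, from 853, 694 and 685 reads, against 4.53, 3.70 and 4.44 FPKM in the Atg5F/F-labelled libraries, from 883, 373 and 644 reads. Every Atg5KO-labelled library lay above every Atg5F/F-labelled one. Its mean was 6.34 ± 0.30 FPKM in the Atg5KO-labelled libraries and 4.22 ± 0.46 FPKM in the Atg5F/F-labelled libraries (SD, n = 3 each), a ratio of 1.5. The log2 fold change on FPKM + 1 was 0.49 (SE 0.076, 95% interval 0.32 to 0.67, limma adjusted p = 0.00124), and 3.56% of the genes tested had a larger one. Its level remained modest, above that of 28.2% of the genes tested in the Atg5KO-labelled libraries and of 20.2% in the Atg5F/F-labelled libraries. The call held in all 16 other processing settings tried, with log2 fold changes of 0.42 to 0.58 and adjusted p up to 0.0076.

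Ppargc1b (chr18:61298136-61400431) encodes PGC-1beta, a close relative that sustains baseline mitochondrial and lipid genes. It was the least abundant of the 10, at 0.638, 0.630 and 0.629 FPKM in the Atg5KO-labelled libraries, against 0.729, 0.810 and 0.821 FPKM in the Atg5F/F-labelled libraries. The groups did not overlap, but the values stand on 125 reads in the Atg5KO-labelled libraries and 193 reads in the Atg5F/F-labelled libraries, under the filter of 1 FPKM. With no filter its log2 fold change was -0.13 (limma adjusted p = 0.083).

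Pprc1 (chr19:46044886-46072915) encodes PRC, the serum-inducible member of the family. It was the most abundant of the 3, with 17.3, 18.5 and 16.7 FPKM in the Atg5KO-labelled libraries, against 18.8, 18.5 and 19.7 FPKM in the Atg5F/F-labelled libraries. The highest Atg5KO-labelled value, 18.46 FPKM, lay just under the lowest Atg5F/F-labelled value, 18.53 FPKM, so the groups did not overlap. The log2 fold change was -0.12 (SE 0.049, 95% interval -0.23 to -0.01) and missed the threshold with a limma adjusted p = 0.089. It passed in 6 of 16 other settings, over which the adjusted p was 0.020 to 0.27. A stretch of 177 exon bases is shared with Ldb1 on the opposite strand, and the strand setting of the authors' counting is not given in the sources used here. Ldb1 averaged 40.2 FPKM in the Atg5KO-labelled libraries and 38.5 FPKM in the Atg5F/F-labelled libraries and was not called.

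Summed over the 3 coactivators, the level was 24.4 ± 1.03 FPKM in the Atg5KO-labelled libraries and 24.0 ± 0.97 FPKM in the Atg5F/F-labelled libraries (SD, n = 3 each), so the total differed by less than the spread between replicates. Within that sum Ppargc1a held 27.1%, 24.9% and 25.9% in the Atg5KO-labelled libraries, against 18.8%, 16.1% and 17.8% in the Atg5F/F-labelled libraries. The shares did not overlap, and their means differed by 8.42 percentage points. A two-sided exact permutation test over the 6 libraries gave p = 0.1, the smallest that 3 against 3 allows, and 0.2 after adjustment over the 2 within-library measures. A share within a library is not moved by library scaling.

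**Figure D2:**
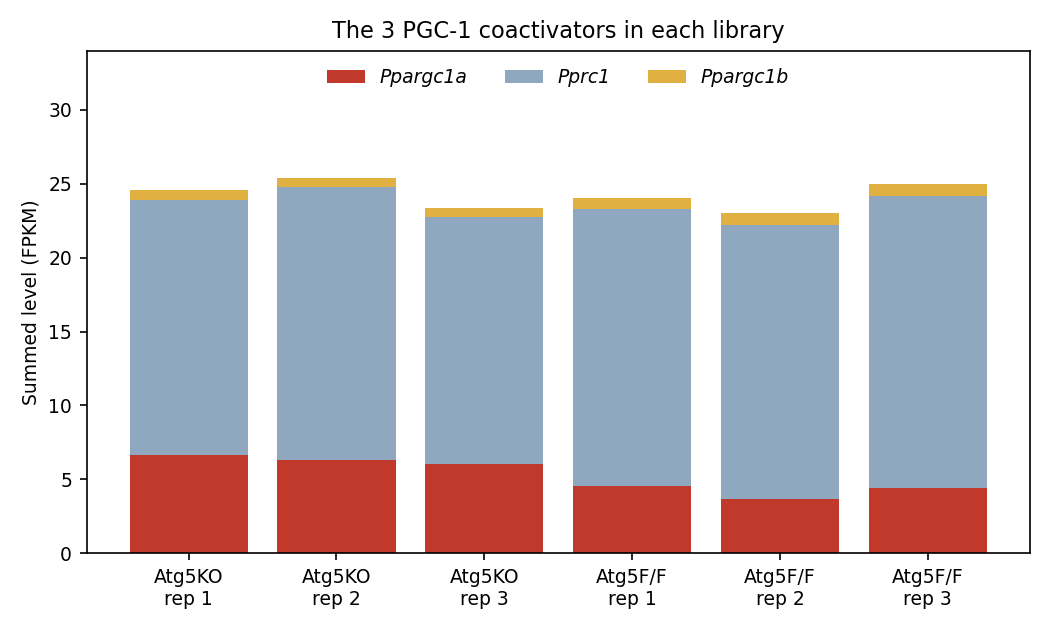
Stacked bars give the FPKM of Ppargc1a, Ppargc1b and Pprc1 in each library (vertical axis from 0), the Atg5KO-labelled libraries first from the left. The bars are of similar height, 23.4 to 25.4 FPKM in Atg5KO-labelled libraries and 23.0 to 24.99 FPKM in Atg5F/F-labelled libraries, while the Ppargc1a segment is taller in each of the first 3.

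Of the DNA-binding factors that the coactivators dock on, Nrf1 was lower and Gabpa was not called. Nrf1 (chr6:30047988-30153458) binds GC-rich promoters of cytochrome c and of many genes for respiration. It had 8.00, 8.40 and 8.36 FPKM in the Atg5KO-labelled libraries, against 10.0, 9.28 and 9.30 FPKM in the Atg5F/F-labelled libraries. All 3 Atg5KO-labelled values lay below the Atg5F/F-labelled values, the highest of which was replicate 1. The log2 fold change was -0.19 (SE 0.052, 95% interval -0.31 to -0.07, limma adjusted p = 0.0195). The limma call was lost when Atg5KO replicate 1 was left out (log2 fold change -0.17, adjusted p = 0.0652) or Atg5F/F replicate 1 (-0.15, adjusted p = 0.0650), and it held in the other 14 settings.

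Gabpa (chr16:84834925-84863779) encodes the ETS subunit through which GABP, also called nuclear respiratory factor 2, binds DNA. It had 13.7, 12.8 and 14.5 FPKM in the Atg5KO-labelled libraries, against 13.3, 12.0 and 13.2 FPKM in the Atg5F/F-labelled libraries. The groups overlapped, and the log2 fold change was 0.08 (95% interval -0.06 to 0.21, limma adjusted p = 0.33). Gabpa shares 397 exon bases with Atp5j on the opposite strand, and Atp5j was far more abundant, at 118.7 FPKM in the Atg5KO-labelled libraries and 126.1 FPKM in the Atg5F/F-labelled libraries, so the level of Gabpa is uncertain if the counting ignored strand.

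Among the genes whose proteins start transcription in the organelle, Polrmt was lower and Tfam and Tfb2m were not called. Polrmt (chr10:79736123-79746581) encodes the single RNA polymerase of the organelle. It had 10.3, 11.4 and 11.1 FPKM in the Atg5KO-labelled libraries, against 12.8, 13.5 and 12.3 FPKM in the Atg5F/F-labelled libraries. The groups stood apart, at a mean of 10.9 ± 0.55 FPKM in the Atg5KO-labelled libraries and 12.9 ± 0.62 FPKM in the Atg5F/F-labelled libraries (SD, n = 3 each). The log2 fold change was -0.22 (SE 0.054, 95% interval -0.34 to -0.09, limma adjusted p = 0.0131), and the call held in all 16 other settings. Of the genes tested, 13.8% had a lower log2 fold change than Polrmt and 16.3% a lower one than Nrf1.

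Tfam (chr10:71225464-71238280) encodes the protein that packages mitochondrial DNA and bends its promoters for POLRMT. It had 12.3, 11.9 and 11.8 FPKM in the Atg5KO-labelled libraries, against 12.0, 12.0 and 11.5 FPKM in the Atg5F/F-labelled libraries. The groups overlapped. The log2 fold change was 0.02 (95% interval -0.08 to 0.12, limma adjusted p = 0.71).

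Tfb2m (chr1:179528055-179546267), the factor that opens the promoter with POLRMT, had 12.2, 11.9 and 11.3 FPKM in the Atg5KO-labelled libraries, against 11.5, 10.4 and 10.9 FPKM in the Atg5F/F-labelled libraries. Its paralog Tfb1m (chr17:3519256-3557781) encodes a methyltransferase of the small ribosomal RNA and had 5.43, 5.23 and 4.57 FPKM in the Atg5KO-labelled libraries, against 4.97, 5.36 and 5.47 FPKM in the Atg5F/F-labelled libraries. Both genes overlapped between the groups. Their log2 fold changes were 0.10 (95% interval -0.02 to 0.22, limma adjusted p = 0.15) for Tfb2m and -0.05 (95% interval -0.21 to 0.12, limma adjusted p = 0.64) for Tfb1m. Tfb1m, with 106 to 143 reads a library in the Atg5KO-labelled group and 111 to 199 in the Atg5F/F-labelled group, was the least deeply counted of the tested genes here, and it shares 142 exon bases with Tiam2 on the opposite strand. The log2 ratio of Tfb2m to Tfb1m was 1.16, 1.19 and 1.31 in the Atg5KO-labelled libraries, against 1.21, 0.96 and 0.99 in the Atg5F/F-labelled libraries. These ratios overlapped between the groups (two-sided exact permutation p = 0.3, adjusted p = 0.3).

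Polg (chr7:79446231-79466362) encodes the catalytic subunit of the DNA polymerase of the organelle. It had 17.96, 19.2 and 19.0 FPKM in the Atg5KO-labelled libraries, against 17.2, 17.5 and 17.7 FPKM in the Atg5F/F-labelled libraries. Every Atg5KO-labelled value was above the Atg5F/F-labelled ones, but the log2 fold change of 0.09 (95% interval -0.00 to 0.19) missed the threshold (limma adjusted p = 0.107), and it passed in 0 of 16 other settings. Polg shares 921 exon bases with Fanci on the opposite strand, itself at 0.49 FPKM in the Atg5KO-labelled libraries and 0.50 FPKM in the Atg5F/F-labelled libraries.

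**Figure D3:**
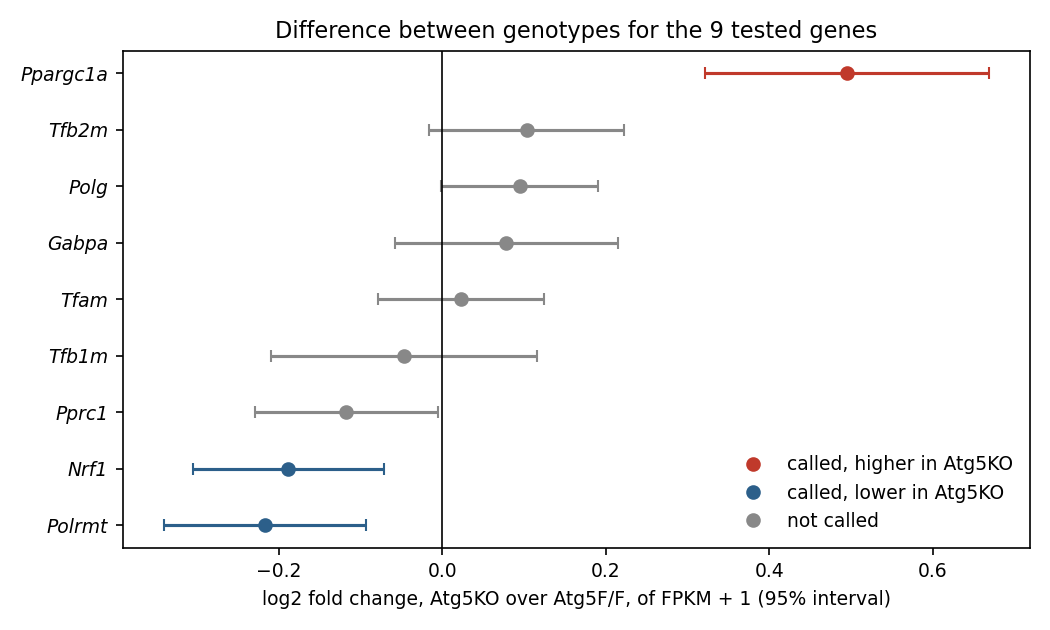
Log2 fold changes of FPKM + 1, Atg5KO over Atg5F/F (horizontal axis), with 95% intervals for the 9 tested genes, one row each. Ppargc1a lies to the right at 0.49, Polrmt and Nrf1 to the left at -0.22 and -0.19, and the interval of Tfam spans 0.

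Per length, Polg and Pprc1 led the order of levels in both genotypes and Ppargc1b came last. In the Atg5KO-labelled libraries it ran Polg, Pprc1, Gabpa, Tfam, Tfb2m, Polrmt, Nrf1, Ppargc1a, Tfb1m and Ppargc1b, and the values of neighbours overlapped between Polg and Pprc1, Tfam and Tfb2m, and Tfb2m and Polrmt. In the Atg5F/F-labelled libraries it ran Pprc1, Polg, Polrmt, Gabpa, Tfam, Tfb2m, Nrf1, Tfb1m, Ppargc1a and Ppargc1b, with overlap between Polrmt and Gabpa and between Tfam and Tfb2m. Polrmt stood at place 6 in the Atg5KO-labelled libraries and place 3 in the Atg5F/F-labelled libraries. Ppargc1a stood at place 8, above Tfb1m, in the Atg5KO-labelled libraries and at place 9, below it, in the Atg5F/F-labelled libraries.

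The authors' deposited table, made on the same libraries, gave 4 of the 10 genes an FDR under 0.05, Ppargc1a as higher and 3 as lower. The share of all genes under that FDR was not counted, so these 4 do not set the group apart from the rest. By limma, 39.2% of all genes tested were called. In the authors' deposited table the log2 fold changes of Atg5KO over Atg5F/F were 0.54 for Ppargc1a (FDR 6.17e-14), -0.26 for Polrmt (FDR 2.7e-04), -0.24 for Nrf1 (FDR 6.5e-04) and -0.15 for Pprc1 (FDR 0.0128). Pprc1 is thus called there and not by limma on FPKM.

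The lists below were chosen with earlier results of these data known. Their shares are therefore descriptions, and no list was tested as a set. Of 21 tested regulators that act on PGC-1alpha, 6 rose (28.6%, near the 21.3% of all genes tested), 0 fell (against 17.9%) and 15 did not pass. Those that rose were Sirt1, Crtc3, Lpin1, Fbxw7, Rnf34 and Fnip1, which include activators and brakes of PGC-1alpha. Lpin1, a partner of PGC-1alpha and a phosphatidate phosphatase, averaged 9.52 ± 0.42 FPKM in the Atg5KO-labelled libraries and 6.25 ± 0.27 FPKM in the Atg5F/F-labelled libraries (SD, n = 3 each; log2 fold change 0.54, limma adjusted p = 1.4e-04). Sirt1, the deacetylase that activates PGC-1alpha, averaged 10.0 FPKM in the Atg5KO-labelled libraries and 8.36 FPKM in the Atg5F/F-labelled libraries (log2 fold change 0.24). Crtc3, a coactivator of CREB, had a log2 fold change of 0.21, and Fnip1, a folliculin partner that restrains PGC-1alpha in mouse muscle, one of 0.23. The median over the list was 0.05. The number that rose was 3 without Atg5F/F replicate 3, and the number that fell was 1 when either Atg5KO replicate 2 or Atg5F/F replicate 1 was left out.

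Of 22 tested transcription factors and cofactors that work with the coactivators, 8 fell (36.4%, against 17.9% of all genes tested). The 2 that rose were Mef2a and Gabpb2 (9.09%, against 21.3%), and the list median was -0.01. Those that fell were Esrrb, Esrrg, Ppara, Rxra, Rxrb, Hnf4a, Mef2d and Hcfc1. Hnf4a, a nuclear receptor of proximal tubule and liver, averaged 3.76 ± 0.26 FPKM in the Atg5KO-labelled libraries and 7.79 ± 1.2 FPKM in the Atg5F/F-labelled libraries (SD, n = 3 each; log2 fold change -0.88, limma adjusted p = 2.2e-04). The oestrogen-related receptors Esrrb and Esrrg had log2 fold changes of -0.62 and -0.44, and Ppara, a driver of fatty acid oxidation, one of -0.48. These 3 were scarce, at 0.582 to 1.12 FPKM in the Atg5KO-labelled libraries and 1.20 to 1.87 FPKM in the Atg5F/F-labelled libraries. At such levels the log2 of FPKM + 1 understates a change. The ratios of mean FPKM, Atg5KO over Atg5F/F, were 0.42 for Esrrb, 0.60 for Esrrg and 0.48 for Ppara, against 0.48 for Hnf4a. Mef2c was listed at 0 in all libraries.

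Well-known targets of NRF1, GABP or the oestrogen-related receptors were lower in 7 of 14 tested, against 17.9% of all genes tested, with a list median of -0.16, and higher in 1. The gene that rose was Pdk4, the kinase that shuts off pyruvate dehydrogenase, at 4.25 ± 0.26 FPKM in the Atg5KO-labelled libraries and 1.97 ± 0.32 FPKM in the Atg5F/F-labelled libraries (SD, n = 3 each; log2 fold change 0.83, limma adjusted p = 2.2e-04). Those that fell were Cox5b, Atp5b, Sdhb, Alas1, Tomm20, Acadm and Vegfa. Sdhb, the iron-sulphur subunit of complex II, averaged 76.6 ± 7.3 FPKM in the Atg5KO-labelled libraries and 96.9 ± 1.8 FPKM in the Atg5F/F-labelled libraries (SD, n = 3 each; log2 fold change -0.34). Alas1, the first enzyme of haem synthesis, had a log2 fold change of -0.28 and Vegfa, the angiogenic factor, one of -0.42. The series' title names a lower oxidative phosphorylation pathway in these cells, so the respiratory genes of this list are not independent evidence of its direction.

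Of the 6 transcription factors of the organelle other than those above, Tefm fell and Mterf1b rose, which is 16.7% in each direction, against 17.9% of all genes tested as lower and 21.3% as higher. The median log2 fold change of the list was 0.09. Tefm, which keeps POLRMT elongating, averaged 13.6 ± 0.42 FPKM in the Atg5KO-labelled libraries and 16.3 ± 0.61 FPKM in the Atg5F/F-labelled libraries (SD, n = 3 each; log2 fold change -0.24, limma adjusted p = 0.0041). Mterf1b, a termination factor with a near-identical copy in Mterf1a that reads may be split with, had a log2 fold change of 0.26 (limma adjusted p = 0.048), and its call was lost when Atg5KO replicate 2 or 3, or any Atg5F/F replicate, was left out, each of which left 0 called as higher.

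Of 20 tested genes for replication and upkeep of mitochondrial DNA, 6 fell (30.0%, against 17.9% of all genes tested) and 3 rose (15.0%, against 21.3%), with a median of -0.08. The genes that fell were Dguok, Top1mt, Mpv17, Slc25a33, Atad3a and Lonp1. Lonp1, the matrix protease that degrades unbound TFAM, averaged 94.9 ± 2.5 FPKM in the Atg5KO-labelled libraries and 128.3 ± 6.2 FPKM in the Atg5F/F-labelled libraries (SD, n = 3 each; log2 fold change -0.43, limma adjusted p = 1.5e-04). Atad3a, an inner membrane ATPase that contacts nucleoids, had a log2 fold change of -0.40, and Top1mt, the topoisomerase of the organelle, one of -0.29. The genes that rose were Tk2, Rrm2b and Fen1. Tk2 and Rrm2b serve the supply of deoxynucleotides, and Tk2 averaged 12.5 ± 0.57 FPKM in the Atg5KO-labelled libraries and 10.3 ± 1.2 FPKM in the Atg5F/F-labelled libraries (SD, n = 3 each; log2 fold change 0.26, limma adjusted p = 0.027). The number that rose was 1 without Atg5KO replicate 1, without Atg5KO replicate 3 or without Atg5F/F replicate 3.

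Further down the same route, 11 of 43 genes that process, modify or turn over mitochondrial RNA fell (25.6%, against 17.9% of all genes tested). The 1 that rose (2.33%, against 21.3%) was Grsf1, an RNA granule protein. The list median was -0.08. The largest falls were in enzymes that modify rRNA or tRNA. Mettl15, a methyltransferase of the small ribosomal RNA, averaged 2.97 ± 0.30 FPKM in the Atg5KO-labelled libraries and 4.26 ± 0.27 FPKM in the Atg5F/F-labelled libraries (SD, n = 3 each; log2 fold change -0.41, limma adjusted p = 0.0038). Nsun3, Pus1 and Rnmtl1 had log2 fold changes of -0.33, -0.30 and -0.29. The number that rose was 0 without Atg5KO replicate 1 or Atg5F/F replicate 2, and 2 without Atg5KO replicate 2.

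Of 20 translation and ribosome assembly factors, 6 fell (30.0%, against 17.9% of all genes tested) and 0 rose (against 21.3%), with a median of -0.08. Tufm, the elongation factor Tu of the organelle, averaged 40.1 ± 0.84 FPKM in the Atg5KO-labelled libraries and 50.2 ± 1.1 FPKM in the Atg5F/F-labelled libraries (SD, n = 3 each; log2 fold change -0.32, limma adjusted p = 2.5e-04). The release factor Mtrf1, the GTPase Noa1 and the elongation factor Gfm1 had log2 fold changes of -0.29, -0.26 and -0.23. Leaving out Atg5KO replicate 3 brought the number that fell to 3, and leaving out Atg5F/F replicate 3 brought it to 2. Transcripts made inside the organelle were not analysed here, so the output of POLRMT itself cannot be given.

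Of 14 genes of NAD synthesis, which PGC-1alpha is linked to in mouse kidney, 7 were tested. Of these 7, 5 fell (71.4%, against 17.9% of all genes tested), 0 rose (against 21.3%) and 2 did not pass, with a median of -0.28. Those that fell were Nmnat1, Nmnat3, Naprt, Nampt and Nmrk1. Tdo2, Ido2, Afmid, Kmo, Kynu, Haao, Qprt, Acmsd and Nadsyn1 made up the rest of the list. None of them was called, and all the untested genes were among them. Nampt, the rate-limiting enzyme of NAD salvage, averaged 15.9 ± 0.73 FPKM in the Atg5KO-labelled libraries and 21.5 ± 0.59 FPKM in the Atg5F/F-labelled libraries (SD, n = 3 each; log2 fold change -0.41, limma adjusted p = 2.2e-04). Nmnat3, the adenylyltransferase ascribed to mitochondria, had a log2 fold change of -0.46, and Nmnat1, its nuclear relative, one of -0.28. Naprt, which uses nicotinic acid, had one of -0.55. Naprt was scarce, and its ratio of mean FPKM, Atg5KO over Atg5F/F, was 0.54. The number that fell was 3 after the trend on gene length was removed, and 7 when no filter was set.

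**Figure D4:**
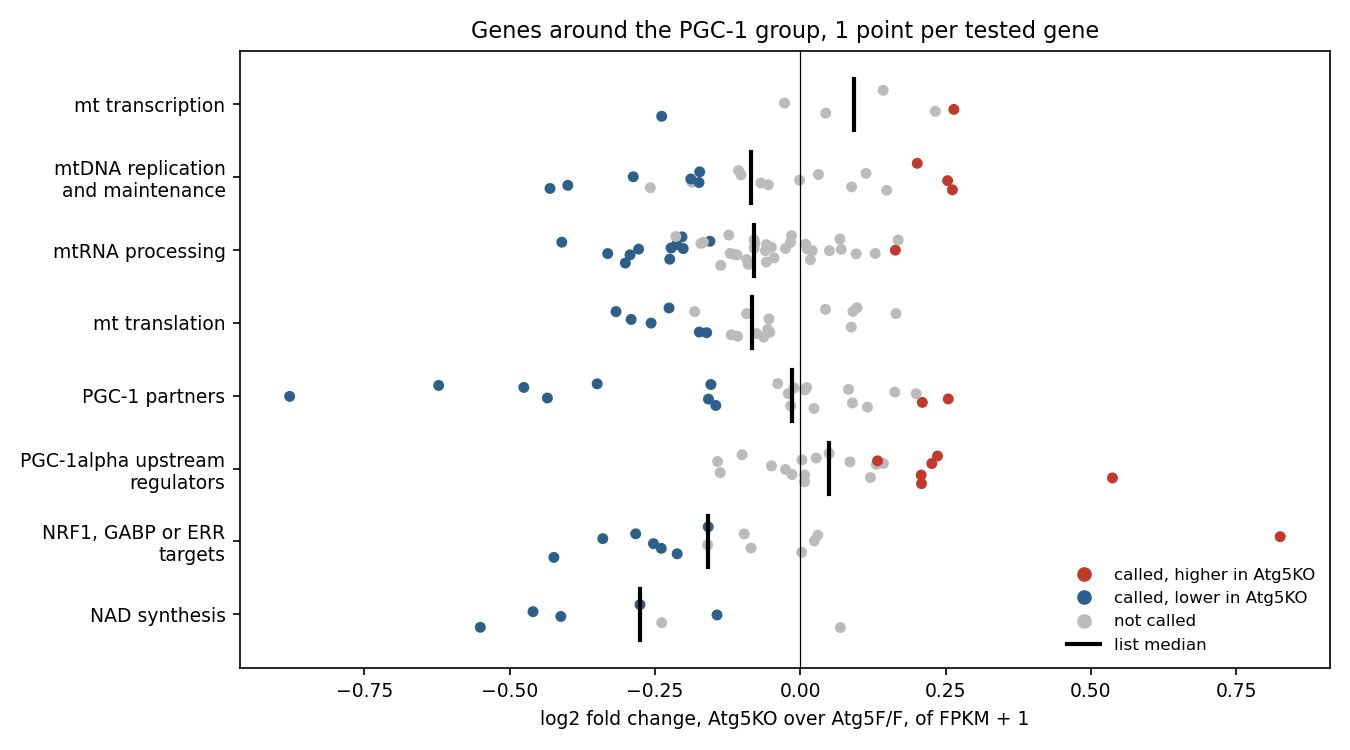
Each point is a tested gene of one of 8 lists (rows), placed by its log2 fold change of FPKM + 1, Atg5KO over Atg5F/F, and coloured by its call, with a bar at the list's median. Medians lie between -0.28 for NAD synthesis and 0.09 for the transcription factors of the organelle, with Pdk4 at 0.83 and Hnf4a at -0.88 as the far points named in the text.

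The labelled cell type was read from 13 proximal tubule markers, of which 6 were tested. Lrp2, Slc27a2, Hnf4a and Ggt1 were lower and Aqp1 and Mme were higher, and the sum of the 13 was 131.1 to 143.8 FPKM in the Atg5KO-labelled libraries, against 218.8 to 239.5 FPKM in the Atg5F/F-labelled libraries. The largest parts of that sum were Ggt1 and Lrp2, so it mainly follows these genes. Ggt1 averaged 54.4 FPKM in the Atg5KO-labelled libraries and 126.5 FPKM in the Atg5F/F-labelled libraries, and Lrp2 35.4 and 54.4 FPKM. Several defining transporters were near 0, with Slc34a1 at 0.0062 FPKM in the Atg5KO-labelled libraries and 0.13 FPKM in the Atg5F/F-labelled libraries, and Slc22a8 at 0 in all. The 3 tested of 6 smooth muscle and pericyte markers (Acta2, Tagln and Cnn1) were all higher, and the 6 summed to 231.2 to 289.4 FPKM in the Atg5KO-labelled libraries, against 66.7 to 73.3 FPKM in the Atg5F/F-labelled libraries, while Myh11, Des and Rgs5 averaged under 0.1 FPKM. Most of this sum was Acta2, at 202.2 FPKM in the Atg5KO-labelled libraries and 40.5 FPKM in the Atg5F/F-labelled libraries, and Tagln, at 64.9 and 28.6 FPKM. Markers of distal tubule (5), collecting duct (5) and fibroblasts (7) summed to at most 0.40 FPKM in Atg5KO-labelled libraries and 0.29 FPKM in Atg5F/F-labelled libraries. Of the others, 2 of 3 podocyte markers were tested (Podxl higher, Synpo not called), and Nphs1 was near 0. Tested too were 1 of 5 endothelial markers (Kdr lower, Pecam1 and Cdh5 under 0.1 FPKM) and 2 of 7 leukocyte markers (Cd68 and Csf1r not called, Adgre1 and Cd3e at 0). The part of these markers in the differences of Ppargc1a, Nrf1 and Polrmt was not tested. After each library's trend on gene length was removed, the log2 fold changes were 0.42 for Ppargc1a, -0.26 for Nrf1 and -0.25 for Polrmt, all still called by limma.

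**Figure D5:**
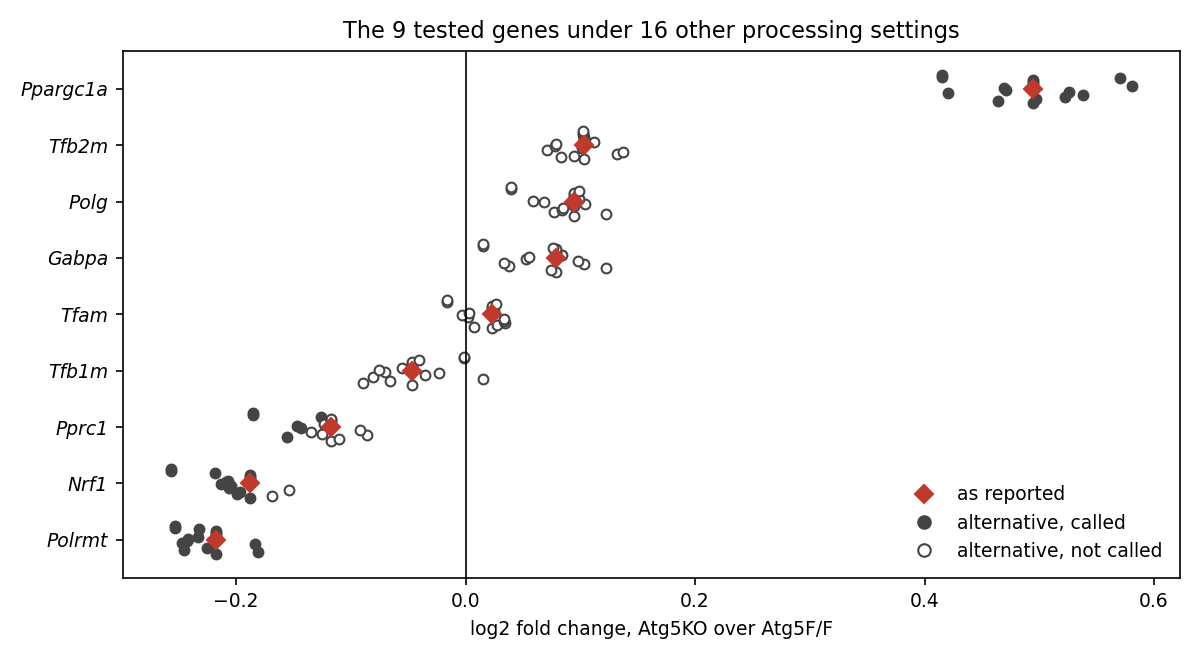
Log2 fold changes, Atg5KO over Atg5F/F (horizontal axis), of the 9 tested genes as reported (diamonds) and under 16 other processing settings (circles, filled where called). Ppargc1a stays between 0.42 and 0.58 and Polrmt between -0.25 and -0.18, filled throughout, while Tfam lies on both sides of 0.

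The genes whose log2 levels over the 6 libraries were most like those of Ppargc1a, among 8905 with a mean of at least 5 FPKM, were Cacul1 (Pearson's r = 0.999), Chmp4c (0.998) and Rnf2 (0.997). Cacul1 averaged 48.4 FPKM in the Atg5KO-labelled libraries and 39.5 FPKM in the Atg5F/F-labelled libraries, Chmp4c 37.2 FPKM in the Atg5KO-labelled libraries and 28.6 FPKM in the Atg5F/F-labelled libraries, and Rnf2 33.8 FPKM in the Atg5KO-labelled libraries and 25.7 FPKM in the Atg5F/F-labelled libraries. With 2 groups of 3 libraries such a likeness mostly restates the difference between the groups, and it is given as a description.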

How the data were processed

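Stranded mRNA libraries were made from total RNA, per the labels' protocols. The submitters' processing notes name HISAT2 2.1.0, featureCounts 1.4.6, edgeR, Trimmomatic 0.35 and bcl2fastq, and the builds GRCm38 and mm10. Annotation and strand setting: not given in the sources used here. Deposited by the authors were FPKM per gene and library, with their log2 fold change, p-value, FDR and a ranking score. FPKM steps gave back whole reads for 11557 of 11559 tested genes (relative tolerance 1.5e-09), which also gave the library totals. Genes that reached 1 FPKM in 3 or more of 6 libraries were compared with limma 3.58.1 in R 4.3.3 on log2(FPKM + 1), with a variance trend and Benjamini-Hochberg adjustment over all tested genes, called at adjusted p under 0.05. Such fold changes understate the change of low genes. The code was run on simulated reads. These held few changed genes and no trend on gene length, so that run does not test the calls made here.

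Named were Atg5, all 10 genes of the group, up to 4 called genes of each list by size of change, and the 3 genes most like Ppargc1a; further genes are named only as called list members. These genes and the lists were chosen with earlier results of these data known, and 2 cell type markers are not reported here. Alternatives covered scaling, filter, pseudocount, variance model, voom on whole reads, gene length, replicate block and leaving out each library. Loci are GENCODE vM21 on GRCm38.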

Additional observations from a re-analysis of the deposited data

How the results depend on the processing

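Ppargc1a kept its direction and call in all 16 alternatives, Polrmt in 16 and Nrf1 in 14. Tfam, not called in any, changed sign to -0.0027 with median-ratio scaling and to -0.016 after removal of the gene length trend, without and with the replicate block; Tfb1m changed sign to 0.015 without Atg5KO replicate 3 (range -0.089 to 0.015 with a library left out). The causes were not tested. The count of lower members, 2, was 1 to 3 with a library left out and 3, with Pprc1, after median-ratio scaling, quantile normalization, voom or length correction. Deviations of libraries with the same replicate number correlated at 0.16, 0.08 and -0.02, and a replicate block gave 4668 calls, against 4530 without it. These values do not settle whether replicate numbers pair the libraries. The block changed no call among the 9 tested genes; the exact p was 0.25 for the Ppargc1a share and 0.5 for the Tfb2m to Tfb1m ratio; 3 pairs allow no p under 0.25. Median-ratio scaling gave 2083 higher and 2420 lower calls, against 2457 and 2073, and removal of the length trend 2203 and 2243. Voom on the recovered reads called 5064 genes. List counts moved as follows. Other mitochondrial transcription factors called higher, 1, were 0 with median-ratio scaling, quantile normalization, no filter, a filter of 5 FPKM or voom, and 0 to 1 with a library left out. Mitochondrial DNA genes higher, 3, were 1 with no filter and 1 to 3 with a library left out. Mitochondrial RNA genes higher, 1, were 2 with the block, the filter of 5 FPKM, robust variances or length correction with or without the block, and 0 to 2 with a library left out. Translation factors lower, 6, were 3 after length correction with the block and 2 to 5 with a library left out. Coactivator partners higher, 2, were 4 with the block or voom, and lower, 8, were 5 with the filter of 5 FPKM. Upstream regulators higher, 6, were 3 to 6 and lower, 0, were 0 to 1 with a library left out; lower were also 1 with the block, median-ratio scaling or length correction with or without the block, and 2 with voom. Textbook targets higher, 1, were 0 with the filter of 5 FPKM and 2 after length correction with or without the block. NAD synthesis genes lower, 5, were 3 after length correction. Depth limits Ppargc1b most, at 39 to 80 reads a library.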
